A study of Mus musculus with 6 samples.

Results

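The 10 genes described here encode the enzymes that make melanin and the membrane proteins of the melanosome, the organelle that holds it. They are the 10 rows, of 22740 protein-coding genes in the deposited table, whose gene name is Tyr, Tyrp1, Dct, Pmel, Mlana, Slc45a2, Oca2, Slc24a5, Gpr143 or Gpnmb. RNA was sequenced from the mouse melanoma line B16 (named B16-F10 in the series text, and described as BRAFV600E-negative in both groups). Cells given 1 uM CX-5461 for 3 days (3 libraries) were set against cells given DMSO for the same time (3 libraries). CX-5461 blocks RNA polymerase I, which transcribes the ribosomal RNA genes. By its title the study concerns melanoma cells that differ in pigment content. Both groups grew in DMEM with serum, all libraries come from 1 cell line, and normal melanocytes were not analysed here. The labels do not say whether replicates were separate cultures, so p-values measure only the spread between these samples.

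Melanin is made from tyrosine inside the melanosome. Tyrosinase, the product of Tyr, carries out the first and rate-limiting oxidation. Dopachrome tautomerase (Dct) and tyrosinase-related protein 1 (Tyrp1) act on later intermediates and favour the brown-black eumelanin. The protein of Pmel forms the fibrils on which pigment is laid down, while Mlana encodes a small membrane protein that binds it. Slc45a2, Oca2 and Slc24a5 encode membrane transporters that set the ionic conditions of the pigment granule. Gpr143 encodes a receptor of the melanosomal membrane, and Gpnmb encodes a glycoprotein related to Pmel that is found in melanosomes and lysosomes. Transcription of many of these genes is known to be driven by MITF, which binds DNA at short E-box sequences.

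The sequences just before the starts of the 3 enzyme genes and of Slc24a5 are shown because the enzyme transcripts were all higher with CX-5461 whereas Slc24a5 did not pass the test. Each line gives the 250 bases before the RefSeq transcription start (build GRCm38.p6), 5′ to 3′ on the strand of the gene, and capitals mark the MITF heptamer TCATGTG on either strand.
Tyr, chr7:87493513-87493762, minus strand: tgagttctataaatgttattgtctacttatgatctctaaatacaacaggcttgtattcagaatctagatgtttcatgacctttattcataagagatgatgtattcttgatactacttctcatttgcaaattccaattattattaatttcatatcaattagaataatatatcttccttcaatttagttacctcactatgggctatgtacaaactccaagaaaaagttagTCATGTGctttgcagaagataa
Tyrp1, chr4:80833963-80834212, plus strand: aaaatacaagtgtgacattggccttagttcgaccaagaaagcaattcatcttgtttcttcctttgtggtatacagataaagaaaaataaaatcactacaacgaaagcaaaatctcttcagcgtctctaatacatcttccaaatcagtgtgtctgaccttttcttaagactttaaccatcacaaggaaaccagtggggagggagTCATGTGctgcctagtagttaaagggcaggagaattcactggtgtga
Dct, chr14:118052247-118052496, minus strand: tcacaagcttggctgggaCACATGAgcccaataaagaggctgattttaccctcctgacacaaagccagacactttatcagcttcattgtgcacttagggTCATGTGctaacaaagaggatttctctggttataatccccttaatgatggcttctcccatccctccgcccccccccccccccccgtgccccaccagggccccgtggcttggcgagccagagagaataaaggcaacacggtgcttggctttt
Slc24a5, chr2:125067877-125068126, plus strand: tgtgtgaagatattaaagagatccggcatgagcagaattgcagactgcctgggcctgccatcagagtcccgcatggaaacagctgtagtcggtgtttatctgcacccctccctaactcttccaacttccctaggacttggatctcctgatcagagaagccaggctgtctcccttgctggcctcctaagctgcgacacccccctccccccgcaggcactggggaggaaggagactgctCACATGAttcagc

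The RefSeq promoter table matched 6 of the 10 genes by symbol, the 4 above with Oca2 and Gpnmb. The heptamer TCATGTG, searched on both strands, was present in 4 of these 6 windows and in 3.25% of all 32851 promoter windows of the same length. It lay 22 bases before the RefSeq start of Tyr and 47 before that of Tyrp1, counted to its first base. The GENCODE span of Tyrp1 begins earlier, at chr4:80834123, inside this window, so the heptamer of Tyrp1 lies within that span. Dct held the heptamer on the opposite strand at -232 and on its own strand at -151, and Slc24a5 held it on the opposite strand at -13. Around the heptamer Tyr and Tyrp1 share the 11-base run AGTCATGTGCT, known as the M-box, which 7 of the 32851 windows held. The run searched for was taken from what these 2 windows share, so both hold it by construction, and both are among the 7. The core CATGTG, which lies within the heptamer and the M-box, matched in 5 of the 6 windows, with Oca2 added, and in 12.3% of all windows. The other MITF heptamer, TCACGTG, was in none of the 6 and in 3.13% of all windows. A match describes letters only. The heptamer was in the windows of Tyr (log2 change 1.05), Tyrp1 (0.56), Dct (0.36) and Slc24a5 (-0.11). Oca2 (2.34) held the core alone, and Gpnmb (1.34) held none of these motifs.

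**Figure D1:**
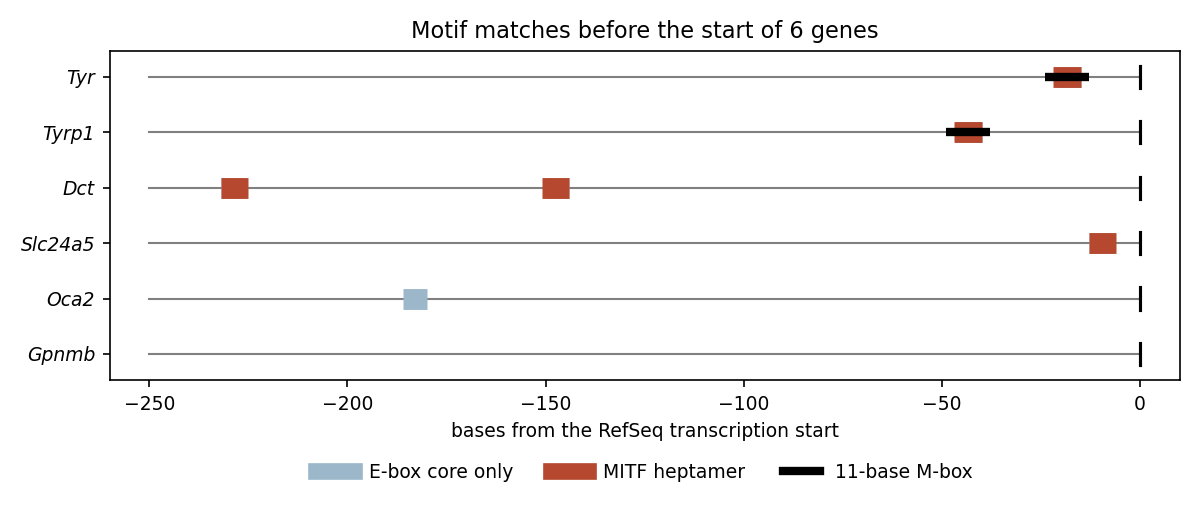
Motif matches in the 250 bases before the RefSeq transcription start of Tyr, Tyrp1, Dct, Slc24a5, Oca2 and Gpnmb, with distance from the start in bases on the x axis and the start drawn as a black tick at 0. Red blocks are the heptamer TCATGTG on either strand, black bars the 11-base M-box found in Tyr and Tyrp1, and the blue block in Oca2 is a CATGTG core outside the heptamer.

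The libraries held 17877481 to 22908309 counts with CX-5461 and 17573990 to 20198979 with DMSO. Levels are CPM, the counts of a gene relative to 1000000 counts of its library, with TMM factors that allow for a shift in composition, and changes were tested with edgeR's quasi-likelihood test and Benjamini-Hochberg adjustment over 12198 genes, with a call at an adjusted p below 0.05. Markers of the melanocyte lineage were present in every library, with a summed level of Mitf, Sox10, Pax3, Tfap2a and Mc1r of 1977 to 1996 CPM with CX-5461 and 982.3 to 1024 CPM with DMSO. On the second principal component, with 2.62% of the variance, CX-5461 replicate 2 lay at -12.5 and CX-5461 replicates 1 and 3 at 6.90 and 5.38. Without that library the same 9 of the 10 transcripts were called higher as with it, and Slc24a5 was called lower.

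All 10 transcripts were abundant enough to be tested. With CX-5461, 9 were higher, none was lower and 1, Slc24a5, did not pass. In the same 9 every CX-5461 library lay above every DMSO library with TMM factors, though for Pmel not with library totals only. Of all tested genes 73.7% were called in either direction, 37.2% as higher and 36.5% as lower, and 38.2% had every CX-5461 library above every DMSO library, with 37.9% the other way. With so many genes called, the 9 of 10 called in either direction stand beside a background of 73.7%. The median log2 change of the 10 was 0.97, against -0.0050 for all tested genes and -0.031 for the 3684 tested genes at least as abundant as Gpr143, the least abundant of the 10. At least 2-fold rises were called for 5 of the 10 and for 11.7% of tested genes. RNA was taken from whole cultures, so a changed share of cells of one kind and a changed level per cell cannot be told apart.

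**Figure D2:**
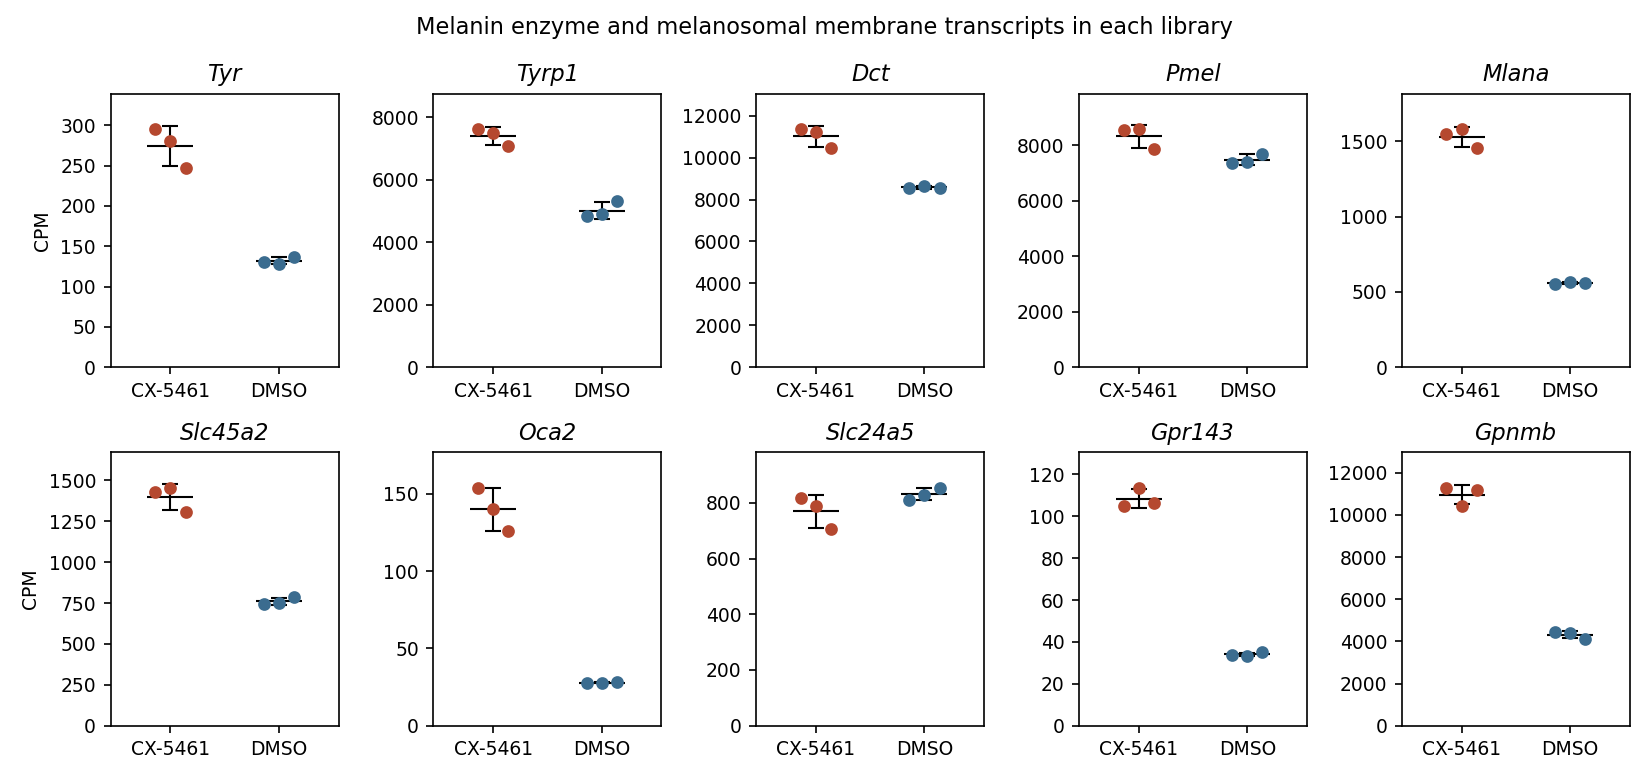
Level of each of the 10 transcripts in CPM (y axis, from 0, with its own scale in each panel) in the 3 CX-5461 libraries (red, left) and the 3 DMSO libraries (blue, right), with points for replicates 1, 2 and 3 from left to right and the mean and SD in black. With the TMM factors used here, in 9 panels all CX-5461 points lie above all DMSO points, and in the Slc24a5 panel they overlap.

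The 3 enzymes rose by unequal amounts. Tyr (ENSMUSG00000004651, chr7:87424771-87493512, minus strand, GRCm38 with GENCODE gene spans, as for the other genes) stood at 295.2, 280.2 and 246.7 CPM in the CX-5461 libraries, against 131.0, 128.5 and 137.1 CPM in the DMSO libraries, a rise of 1.05 ± 0.06 (log2, SE, n = 3 per group) or 2.07-fold (edgeR, adjusted p = 3.58e-10). Each CX-5461 library therefore exceeded the highest DMSO library by more than the replicates of either group differed. Tyrp1 (chr4:80834123-80851719) had 7611, 7504 and 7076 CPM with CX-5461, against 4828, 4885 and 5306 CPM with DMSO, a 1.48-fold rise (0.56 ± 0.05, adjusted p = 7.19e-08). Dct (chr14:118012790-118052244) had 11355, 11234 and 10449 CPM with CX-5461, against 8526, 8634 and 8567 CPM with DMSO, a 1.28-fold rise (0.36 ± 0.05, adjusted p = 4.92e-06). The DMSO libraries of Dct lay close together (SD 54.2 CPM), whereas those with CX-5461 were spread more widely (SD 491.7 CPM). By count Dct had abundance rank 2 in the CX-5461 libraries and rank 3 in the DMSO libraries, and Tyrp1 had rank 5 with CX-5461 and rank 6 with DMSO. Tyr, which encodes the enzyme of the first step, ranked only 599 with CX-5461 and 1731 with DMSO.

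Ratios of counts within a library do not depend on how libraries are scaled. In the CX-5461 libraries there were 38.5, 40.1 and 42.4 Dct counts for each Tyr count, and in the DMSO libraries 65.1, 67.2 and 62.5. The log2 ratio of Tyr to Dct was -5.33 ± 0.07 with CX-5461 and -6.02 ± 0.05 with DMSO (SD, n = 3 per group), a difference of 0.69 with no overlap between the groups (exact permutation test, two-sided, p = 0.1). The log2 ratio of Tyrp1 to Dct was -0.57 ± 0.01 with CX-5461 and -0.78 ± 0.075 with DMSO, a difference of 0.20, again without overlap (exact permutation test, two-sided, p = 0.1). With 3 libraries against 3 this test cannot give a p below 0.1, so the values in each library carry the comparison. It was run for 5 quantities, the 4 count ratios and the share of all counts given further on, and after Benjamini-Hochberg adjustment each p stayed at 0.1. Relative to Dct, both other enzyme transcripts were thus higher with CX-5461, Tyr by more than Tyrp1, and Dct had the most counts of the 3 in every library. These ratios restate the unequal changes given above, and the pairs were chosen with earlier results of these data known. They are therefore no separate evidence.

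The structural protein genes behaved differently from one another. Pmel (chr10:128704195-128720238), which encodes the fibril protein, had 8567, 8588 and 7857 CPM with CX-5461, against 7361, 7411 and 7706 CPM with DMSO, a rise of 0.15 ± 0.05 (log2, SE) or 1.11-fold (adjusted p = 0.0101). Its lowest CX-5461 library (7857 CPM) and its highest DMSO library (7706 CPM) were close, although with TMM factors the groups did not overlap. With library totals only they did, since CX-5461 replicate 3 lay below DMSO replicate 3. The call of Pmel was lost when libraries were scaled to their totals only (edgeR, adjusted p = 0.122), and without DMSO replicate 1 (0.0540) or DMSO replicate 2 (0.0618). Pmel shares 34 exonic bases with Cdk2 and 105 with Dgka on the opposite strand, and whether counting used strand is not given in the sources used here. Cdk2 was at 614.5 ± 30.8 CPM with CX-5461 and 540.8 ± 7.03 CPM with DMSO (SD), and Dgka at 3.07 ± 0.512 CPM with CX-5461 and 6.50 ± 0.350 CPM with DMSO. The mean of Pmel was 844.2 CPM higher with CX-5461, and the part of Cdk2 and Dgka in its value was not tested. Mlana (chr19:29697824-29708634), whose protein binds that of Pmel, had 1552, 1581 and 1454 CPM with CX-5461, against 550.3, 566.5 and 556.0 CPM with DMSO, a 2.74-fold rise (1.46 ± 0.05, adjusted p = 3.75e-13). For Mlana the lowest CX-5461 library was thus well above the highest DMSO library, and its abundance rank was 37 with CX-5461 and 168 with DMSO.

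Gpnmb (chr6:49036546-49070929), the relative of Pmel, had 11288, 10425 and 11173 CPM with CX-5461, against 4443, 4389 and 4126 CPM with DMSO, a 2.54-fold rise (1.34 ± 0.05, adjusted p = 2.85e-12). Its abundance rank was 3 with CX-5461 and 8 with DMSO, and its CX-5461 libraries did not approach those with DMSO. Of the net gain of 14190 CPM that the 10 transcripts made together, Gpnmb alone accounted for 46.8%, Dct for 17.2% and Tyrp1 for 16.8%. Gpnmb is also known in macrophages, and of 7 macrophage markers found in the table the pan-leukocyte gene Ptprc, Csf1r, Emr1, Itgam and Aif1 each averaged at most 0.105 CPM in either group. Itgam had no count in any library. The summed level of those 7 markers was 15.8 to 17.7 CPM with CX-5461 and 11.1 to 12.1 CPM with DMSO, most of it from Cd68, a lysosomal protein also made by other cells, at 12.3 CPM with CX-5461 and 10.6 CPM with DMSO. Lyz2, which encodes lysozyme, rose, to 4.20 CPM with CX-5461 against 0.871 CPM with DMSO (log2 2.21, edgeR adjusted p = 9.99e-06). Fibroblast markers summed to 30.9 to 34.4 CPM with CX-5461 and 12.5 to 16.5 CPM with DMSO. Of these Col1a2 rose, to 25.1 CPM with CX-5461 against 2.22 CPM with DMSO (log2 3.51, edgeR adjusted p = 3.31e-12). Col1a1 fell, to 2.81 CPM with CX-5461 against 6.94 CPM with DMSO (-1.30, 1.08e-05). Pdgfra was also called lower, at 4.51 CPM with CX-5461 against 5.80 CPM with DMSO (-0.37, 0.0442), although its groups overlapped. Col3a1 and Thy1 had no count in any library. The part of the macrophage and fibroblast markers in the level of Gpnmb was not tested. Of 6 keratinocyte markers 4 had no count anywhere and the sum was at most 0.115 CPM, and 4 endothelial markers summed to 0.152 to 0.230 CPM with CX-5461 and 0.109 to 0.338 CPM with DMSO.

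The 3 transporter genes ranged from the largest rise of the 10 to the one transcript that did not pass. Oca2 (chr7:56239760-56536518), whose product is needed for normal melanosomal pH, had 154.0, 140.4 and 126.1 CPM with CX-5461, against 27.8, 27.5 and 28.0 CPM with DMSO, a 5.05-fold rise (2.34 ± 0.07, adjusted p = 2.68e-13). These levels rest on 2440 to 3420 counts per CX-5461 library and 501 to 570 per DMSO library. Oca2 spans 296.8 kb, while the other 9 genes span 10.8 to 68.7 kb, and when an offset for gene span was fitted its rise was 2.44-fold (1.29 ± 0.07 on the log2 scale, adjusted p = 5.34e-11). That offset moved the median of all tested genes to -0.11, relative to which Gpr143 rose by 1.75 (log2), Mlana by 1.56, Gpnmb by 1.40 and Oca2 by 1.40. Gpr143, Mlana and Gpnmb thus stood above Oca2 with the offset, Gpnmb by less than the error, while the call of Oca2 was kept.

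Slc45a2 (chr15:11000721-11029233), a transporter gene needed for tyrosinase activity in the melanosome, had 1430, 1455 and 1308 CPM with CX-5461, against 744.8, 750.2 and 785.3 CPM with DMSO, a 1.84-fold rise (0.88 ± 0.05, adjusted p = 2.59e-10). In every library Slc45a2 had more counts than Oca2, but the excess was 9.28, 10.4 and 10.4 times with CX-5461 and 26.8, 27.3 and 28.1 times with DMSO. The log2 ratio of Oca2 to Slc45a2 counts differed by 1.45 between the groups (exact permutation test, two-sided, p = 0.1, the smallest possible). The gene-span offset was not applied to this ratio. Under that offset the fitted changes lay closer together, at 1.29 for Oca2 and 0.85 for Slc45a2 (log2). Slc24a5 (chr2:125068124-125088677), which encodes a potassium-dependent sodium/calcium exchanger, had 816.9, 787.6 and 704.7 CPM with CX-5461, against 812.4, 828.1 and 854.9 CPM with DMSO. With TMM factors the groups overlapped, since CX-5461 replicate 1 lay above DMSO replicate 1. With library totals only, every CX-5461 library lay below every DMSO library. The change of -0.11 ± 0.05 (log2, SE) with TMM factors did not pass (edgeR, adjusted p = 0.0661, unadjusted 0.0498). The 95% interval of that change ran from -0.22 to -0.00013, so a rise of the size seen in the other transporter genes lies outside it. Slc24a5 was called lower with library totals only (-0.19, adjusted p = 0.00312), with no filter on low counts (-0.13, 0.0152), with the gene-span offset (-0.13, 0.0301, or -0.017 relative to the shifted median), without CX-5461 replicate 1 (-0.16, 0.0108) and without CX-5461 replicate 2 (-0.13, 0.0178), and its adjusted p reached 0.263 without CX-5461 replicate 3 (-0.057). Slc24a5 shares 921 exonic bases with Myef2 on the opposite strand, and if counting ignored strand their reads cannot be told apart there. Myef2 was at 61.7 ± 3.66 CPM with CX-5461 and 85.7 ± 2.10 CPM with DMSO (SD), a change of -0.47 ± 0.05 (log2, SE, adjusted p = 1.19e-06), and its part in the value of Slc24a5 was not tested.

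Gpr143 (chrX:152781921-152808646), the melanosomal receptor gene, had 105.2, 113.7 and 106.4 CPM with CX-5461, against 33.9, 33.3 and 35.0 CPM with DMSO, a 3.18-fold rise (1.67 ± 0.05, adjusted p = 6.23e-13). Mlana had the next largest rise, and the log2 ratio of Gpr143 to Mlana counts was -3.82 ± 0.06 with CX-5461 and -4.03 ± 0.05 with DMSO (SD). The 2 sets of libraries did not overlap in that ratio, with a difference of 0.22 (exact permutation test, two-sided, p = 0.1).

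Ordered by size, the log2 changes were Oca2, Gpr143, Mlana, Gpnmb, Tyr, Slc45a2, Tyrp1, Dct, Pmel and Slc24a5. The 95% intervals of neighbours overlapped for Mlana and Gpnmb, for Tyr and Slc45a2 and for Tyrp1 and Dct, and did not overlap for the other neighbours in this order. Oca2, at the top, had a larger rise than all but 303 tested genes, and Gpr143 than all but 658. Dct lay above 71.7% of tested genes in its change, and Pmel above 60.7%.

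**Figure D3:**
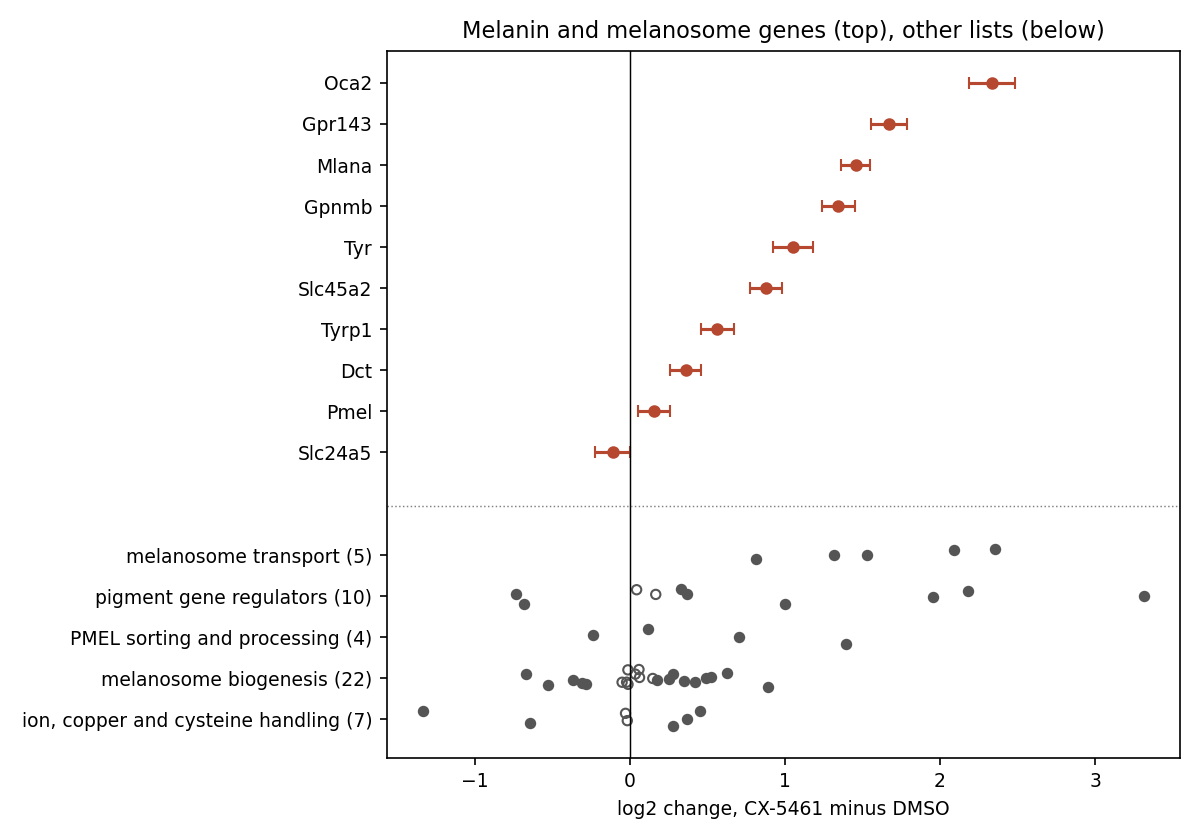
Log2 change with CX-5461 minus DMSO (x axis) of the 10 transcripts with 95% intervals (red, top) and of 48 other pigment genes in 5 lists (bottom, number tested in brackets), where filled grey points passed the test, open grey points did not, and vertical scatter within a list has no meaning. The 10 transcripts run from 2.34 for Oca2 to -0.11 for Slc24a5, which did not pass, and all 5 melanosome transport genes lie above 0.

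To compare levels between genes, CPM were divided by the length of all annotated exons of the gene in kilobases. On that scale Pmel stood at 3637 ± 181.4 CPM per kilobase with CX-5461 and 3269 ± 81.4 with DMSO (SD, n = 3 per group), followed in both groups by Tyrp1, Dct, Gpnmb and Mlana. A second tier held Slc45a2 and Slc24a5, whose order differed. Slc45a2 was at 468.5 ± 26.4 CPM per kilobase with CX-5461 and 254.8 ± 7.37 with DMSO, and Slc24a5 at 330.4 ± 25.0 with CX-5461 and 357.0 ± 9.22 with DMSO. The third tier lay far lower. Gpr143 was at 54.3 ± 2.31 CPM per kilobase with CX-5461 and 17.1 ± 0.432 with DMSO, Tyr at 38.6 ± 3.49 with CX-5461 and 18.6 ± 0.624 with DMSO, and Oca2 at 35.4 ± 3.52 with CX-5461 and 7.01 ± 0.0596 with DMSO. Neighbours in the order were separated in every library of a group except Tyr and Oca2 with CX-5461, whose ranges overlapped. The highest level was 102.8 times the lowest with CX-5461 and 466.3 times with DMSO. Scaling by the longest protein-coding transcript instead was a choice made after seeing the data. It put Dct ahead of Pmel, at 5001 ± 223.3 and 3914 ± 195.2 CPM per kilobase with CX-5461. With CX-5461 it also put Gpnmb ahead of Tyrp1, at 2962 ± 126.6 and 2720 ± 104.0, and with DMSO the ranges of Tyr and Gpr143 overlapped. Gpr143, Tyr and Oca2 stayed the lowest 3 in both groups. The highest level was then 111.7 times the lowest with CX-5461 and 439.3 times with DMSO.

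**Figure D4:**
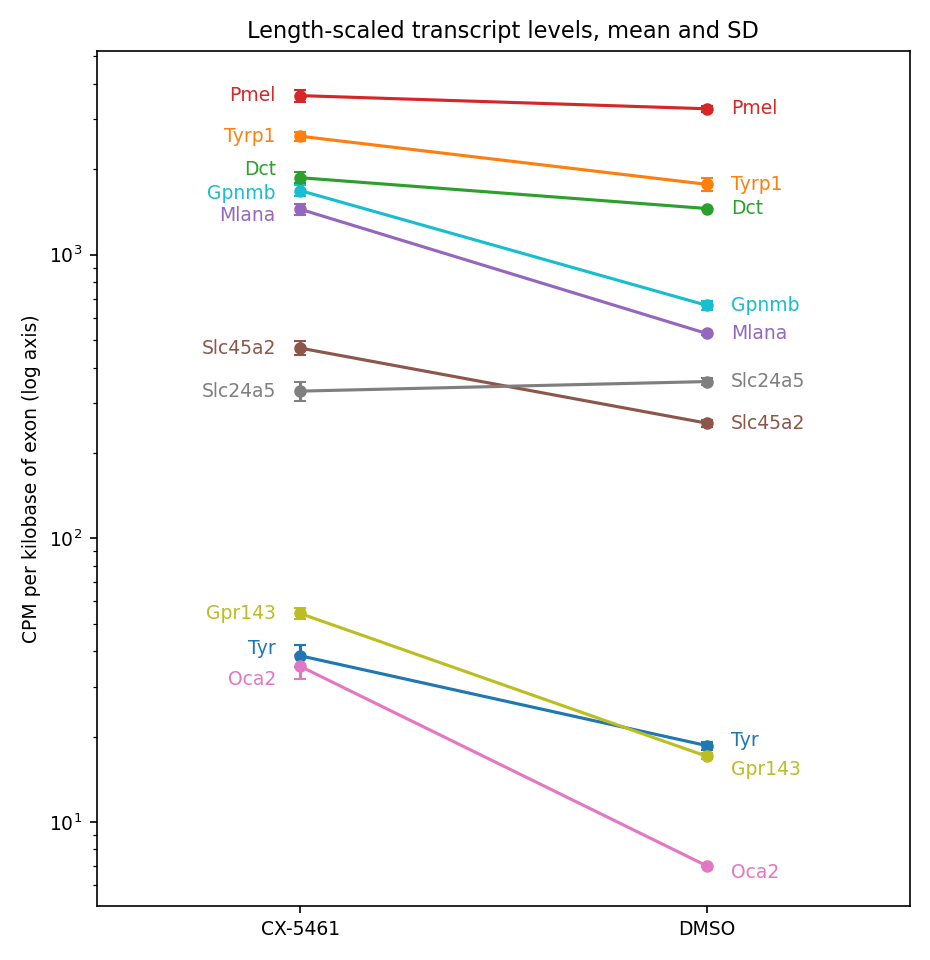
Mean level of each transcript in CPM per kilobase of exon (log axis), with CX-5461 on the left and DMSO on the right, bars showing the SD over 3 libraries. Gpr143, Tyr and Oca2 form the lowest tier in both groups, and the lines of Slc45a2 and Slc24a5 cross.

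Together the 10 transcripts held 4.18%, 4.09% and 3.98% of all counts in the CX-5461 libraries, against 2.83%, 2.84% and 2.86% in the DMSO libraries. The groups did not overlap, with a difference of 1.24 percentage points (exact permutation test, two-sided, p = 0.1). Within that share Gpnmb held 26.2% ± 1.41 with CX-5461 and 15.6% ± 0.790 with DMSO (SD, n = 3 per group). The share of Dct was 26.3% ± 0.441 with CX-5461 and 30.9% ± 0.385 with DMSO. That of Pmel was 19.9% ± 0.498 with CX-5461 and 27.0% ± 0.358 with DMSO, so both took a smaller part with CX-5461 although their own levels were higher. Tyrp1 held 17.6% ± 0.175 with CX-5461 and 18.0% ± 0.727 with DMSO, a difference within the spread of the DMSO libraries. The mitochondrially encoded genes took 2.70% to 3.40% of counts with CX-5461 and 1.70% to 1.84% with DMSO, and without these and the 50 most abundant genes outside the 10, the difference in the share of the 10 was 1.43 percentage points. Of the CX-5461 libraries, replicate 3 was the lowest for 8 of the 10 transcripts, the exceptions being Gpr143 and Gpnmb. Of the DMSO libraries, replicate 3 was the highest for 7 of the 10.

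**Figure D5:**
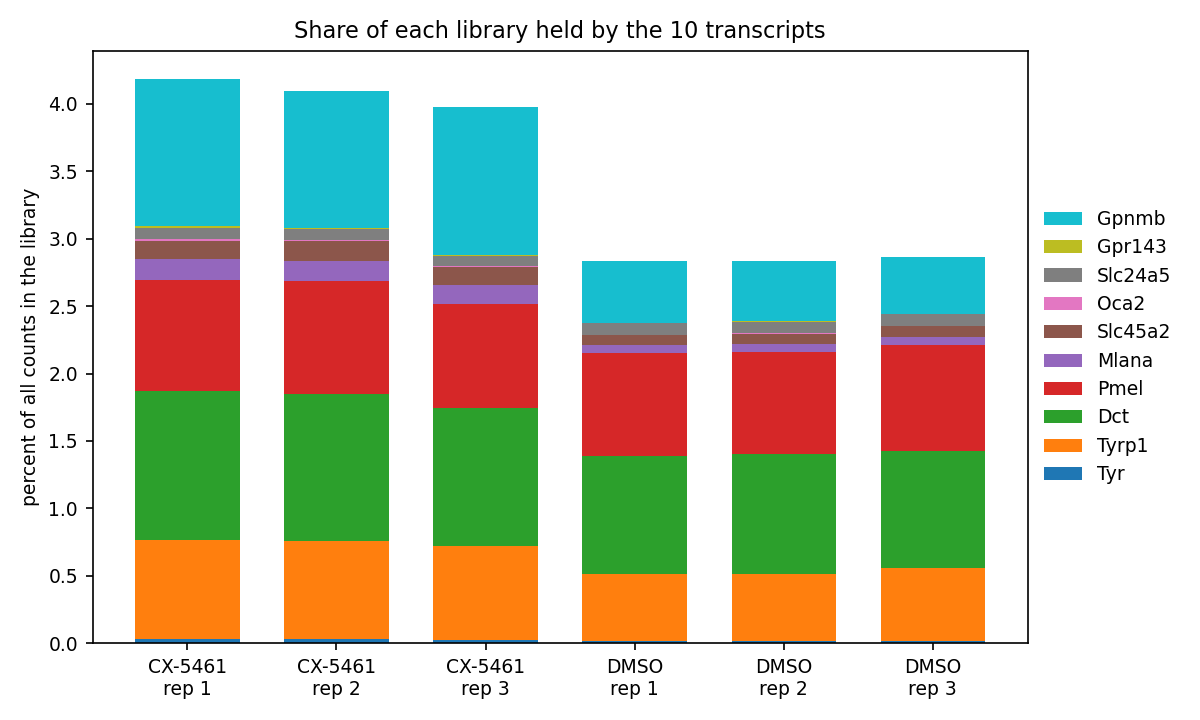
Percent of all counts in each library (y axis, from 0) held by the 10 transcripts, stacked by gene, for CX-5461 replicates 1 to 3 on the left and DMSO replicates 1 to 3 on the right. The stacks reach 3.98% to 4.18% with CX-5461 and 2.83% to 2.86% with DMSO, and the Gpnmb segment differs most.

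The other pigment genes, 50 in 5 lists, were set beside these 10. Of these 48 could be tested, and 26 rose while 10 fell and 12 missed the threshold. Their median log2 change was 0.21, and the adjusted p of each changed gene named from these lists was at most 0.000597 (edgeR). The share that rose was 54.2%, against 37.2% of all tested genes, and the share that fell 20.8%, against 36.5%. All 5 melanosome transport genes rose. Mlph, the adaptor that links melanosomes to the motor, was at 605.6 ± 41.1 CPM with CX-5461 and 118.2 ± 0.785 CPM with DMSO (SD), a change of 2.36 ± 0.05 (log2, SE). The small GTPase gene Rab27a rose by 0.81 ± 0.05, and Myo5a, the motor itself and the most abundant of this list, by 1.31 ± 0.07. Of 22 genes of melanosome biogenesis 9 rose and 5 fell while 8 missed the threshold, and the median was 0.060. The 40.9% that rose is close to the 37.2% of all tested genes, and 22.7% fell, against 36.5%. Among them Ap3b1, an AP-3 adaptor subunit, rose by 0.89 ± 0.05 and Rab38, which routes the melanin enzymes to the melanosome, by 0.62 ± 0.04, to 402.2 ± 16.7 CPM with CX-5461 against 261.1 ± 1.62 CPM with DMSO. Rabggta, a subunit of the enzyme that prenylates Rab proteins, changed by -0.67 ± 0.09.

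Of 4 genes that sort or process the Pmel protein 3 rose and 1 fell. These shares of 75% and 25% stand beside 37.2% and 36.5% of all tested genes. Bace2, a protease that cuts it, rose by 1.40 ± 0.05, to 523.0 ± 36.6 CPM with CX-5461 against 198.8 ± 3.64 CPM with DMSO, and Apoe, on which its fibrils form, by 0.70 ± 0.05, while Furin, a proprotein convertase, changed by -0.24 ± 0.05. Among 7 genes of ion, copper and cysteine handling 3 rose, 2 fell and 2 missed the threshold. The 42.9% that rose is near the 37.2% of all tested genes, and 28.6% fell, against 36.5%. The endolysosomal channel gene Tpcn2 rose by 0.45 ± 0.09. Slc7a11, the cystine transporter that feeds pheomelanin and glutathione synthesis and the most abundant of these 7, changed by -1.34 ± 0.05, to 196.0 ± 10.3 CPM with CX-5461 against 494.9 ± 19.7 CPM with DMSO. Slc7a11 was thus lower in the same libraries in which Dct and Tyrp1 were higher, and a link between them was not tested. The 2 of these 7 that missed the threshold were Mfsd12 (log2 -0.017, edgeR adjusted p = 0.809) and Ctns (-0.028, 0.600).

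Of 12 pigment gene regulators 10 could be tested, of which 6 rose, 2 fell and 2 missed the threshold. The share that rose was 60%, against 37.2% of all tested genes, and the share that fell 20%, against 36.5%. Mitf was at 435.8 ± 12.1 CPM with CX-5461 and 96.3 ± 3.20 CPM with DMSO, and Sox10, which acts upstream of it, at 731.5 ± 17.9 CPM with CX-5461 and 567.7 ± 15.2 CPM with DMSO (SD), a change of 0.37 ± 0.04 (log2, SE). Kit, the receptor of stem cell factor, had the largest rise of this list, 3.31 ± 0.11, while Creb1, which relays cAMP signals, changed by -0.73 ± 0.06. Ednrb, the endothelin receptor of the lineage, had no count in any library, and Lef1 averaged 0.0956 CPM with CX-5461 and 0.156 CPM with DMSO. With no count, the limit of 3 counts allows Ednrb up to 0.135 to 0.173 CPM in the CX-5461 libraries and 0.145 to 0.168 CPM in the DMSO libraries on the same scale, for counting error only.

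The genes whose profile over the 6 libraries was most like that of Tyr were found by the root mean square difference of log2(CPM + 1), each gene centred on its own mean, among 9090 genes with a mean of at least 10 CPM. They were Met, which encodes the hepatocyte growth factor receptor (difference 0.032), Fut8, a fucosyltransferase gene (0.047), Sepp1, which encodes selenoprotein P (0.050), Ppp3ca, a calcineurin catalytic subunit gene (0.052), and Dnah7b, a dynein heavy chain gene (0.055). Of the other 9 transcripts described here the closest to Tyr was Slc45a2 (0.092), then Gpnmb (0.18) and Mlana (0.21), and the farthest was Oca2 (0.62). With 6 libraries in 2 groups this measure mostly reads the size of the change between the groups.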

How the data were processed

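RNA sequencing counts of 3 CX-5461 and 3 DMSO libraries of B16 cells were used. The authors deposited whole-number counts per protein-coding gene, which had not been normalized, as the differing column totals show. The submitters' processing notes name GRCm38 and mm10. The aligner, counter, annotation and strand setting of the counting were not given in the sources used here. Groups and replicate numbers came from the sample titles. Genes were kept by filterByExpr (minimum count 10), TMM factors were 0.970 to 1.03, and edgeR 4.0.16 quasi-likelihood tests (R 4.3.3) used an intercept and the treatment, two-sided. Standard errors were obtained from the log2 change and F (its ratio to the root of F). The common biological coefficient of variation was 4.86%. In counts of 12198 genes simulated for the CX-5461 and DMSO libraries, 50 genes were changed at each size. edgeR called 31 of those with a 1.25-fold change and 44 with 1.5-fold. It called all 50 with 2-fold and 49 with 4-fold changes, and made 13 false calls. Few genes were changed there, unlike in the data. Gene spans and exonic lengths are from GENCODE M21 (GRCm38), which matched 21842 of 22740 identifiers, and promoters from RefSeq (GRCm38.p6). Alternatives were library totals only, RLE or upper-quartile factors, no filter or one of 1 CPM in 3 libraries, the tools DESeq2 1.42.0 and limma-voom 3.58.1, a replicate block, a gene-span offset (a loess curve per library), removal of abundant genes, a threshold of 0.01 and each library left out. The genes and lists, and the ratios compared, were chosen with earlier results of these data known. All 10 genes are named. Of each list of other pigment genes, the called gene with the largest change in each direction and the most abundant called gene are named, with Mitf, Sox10, Rab27a and Mlph. Mfsd12 and Ctns, which did not pass, are named as well. The 5 genes most like Tyr leave out clone and predicted-gene names.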

Additional observations from a re-analysis of the deposited data

How the results depend on the processing

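Over 17 alternatives 8 or 9 of the 10 transcripts were called higher, Pmel being the one lost. Tyr (0.86 to 1.12, log2), Tyrp1 (0.49 to 0.60), Dct (0.29 to 0.39), Mlana (1.38 to 1.48), Slc45a2 (0.81 to 0.92), Oca2 (1.29 to 2.40), Gpr143 (1.60 to 1.69) and Gpnmb (1.27 to 1.37) kept their direction and call in all of them. Pmel was 0.080 with library totals only, missed the stricter threshold of 0.01 at its unchanged 0.15, and was 0.13 to 0.19 with a library left out. Slc24a5 was -0.19 with library totals only, -0.13 without a filter and -0.13 with the gene-span offset, and 1 of the 10 was then called lower, as it was without CX-5461 replicate 1 or 2. With a library left out Slc24a5 was -0.16 to -0.057 and 0 or 1 was called lower. The gene-span offset lowered the median of the 10 to 0.85. It also moved the median of all tested genes to -0.11, relative to which the median of the 10 was 0.96. The share of all counts and the 4 count ratios were run in 7 alternatives, removal of abundant genes and each library left out, and kept their sign. Removing other genes cannot change a ratio, and leaving out a library cannot reverse groups that do not overlap. Only the share without the abundant genes could therefore have changed sign.

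The labels do not say whether the replicate numbers pair the samples. Deviations of same-numbered libraries from their group means correlated at 0.037, -0.002 and -0.039 over genes. Those of differently numbered libraries correlated at -0.062 to 0.060. These values show no pairing but cannot exclude a shared culture or day. With the replicate block 9 of the 10 were called higher and none lower, Pmel at 0.15 (edgeR, adjusted p = 0.0142), and the block changed no call among them. Low counts did not limit the 10, whose lowest library total for a gene was 501 counts, but the changes of Pmel and Slc24a5 are smaller than any change that was simulated.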
